A study of Saccharomyces cerevisiae with 24 samples.

Results

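The genes described here encode the proteins of the cytosolic ribosome of budding yeast. They were chosen by symbol, as RPL, RPS or RPP followed by a number and, for duplicated genes, the copy letter A or B. Of the 5912 genes in the files, 138 had such a symbol. One of them, RPP1 (YHR062C), encodes a subunit of nuclear RNase P and not a ribosomal protein, so it was set apart, and 137 genes were described. The large subunit accounted for 81 of them, including 5 genes of the acidic stalk, and the small subunit for 56. Copies A and B formed 59 pairs, or 118 genes, and 19 genes had a single copy.

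A yeast ribosome holds the same set of proteins whichever gene copy supplies them, and growing cells devote a large part of their mRNA synthesis to these genes. Their transcription is driven mainly by the factors Rap1, Fhl1 and Ifh1 under the control of the TOR and PKA pathways, and it falls in most stress responses. Most pairs date from a duplication of the whole genome, and the copies of a pair often make identical or nearly identical proteins while their flanking sequences have diverged.

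All strains were haploid BY4741 MATa cells grown in YPD, a rich medium. The mutants were gcn2Δ::KAN, which lacks the eIF2 kinase that responds to uncharged tRNA, gcn4Δ::KAN, which lacks the transcription factor whose translation increases when eIF2 is phosphorylated, and mbf1Δ::NAT, which lacks a coactivator of Gcn4. The fourth strain was wild type (wt). Each strain was treated for 1 h with the DNA alkylating chemical methyl methanesulfonate (MMS) at 0.1%, or left untreated (NT), with 3 biological replicates in each of the 8 groups. The labels do not say whether a deletion was carried by 1 clone or several. The comparisons asked how the response to MMS depends on each deleted gene.

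Total estimated counts ranged from 13518147 to 28366559 per library, and all 137 genes passed the filter on low counts. Each deleted gene was low in its own strain. In CPM, counts scaled to a common library size, GCN2 averaged 1.08 ± 0.156 in MMS-treated and 0.576 ± 0.0711 in untreated gcn2Δ cells, against 69.0 ± 6.70 and 70.0 ± 5.68 in wild type (SD, n = 3 each). GCN4 averaged 25.3 ± 2.75 and 27.99 ± 2.70 CPM in gcn4Δ cells, against 568 ± 12.3 and 971 ± 32.0 CPM in wild type (SD, n = 3 each). MBF1 averaged 0.298 ± 0.197 and 2.59 ± 0.332 CPM in mbf1Δ cells, against 712 ± 39.5 and 281 ± 19.3 CPM in wild type (SD, n = 3 each). The MATa genes MFA1, MFA2, STE2 and BAR1 had between 57.4 and 3686 TPM, a measure of transcript abundance per length, while MF(ALPHA)1, MF(ALPHA)2 and STE3 had 0.105 to 22.6 TPM and SAG1 had 16.7 to 99.4 TPM. Reads of 4 genes inside the rRNA locus differed between the strains. They took 0.357% to 0.603% of the counts in MMS-treated gcn4Δ and 1.00% to 1.49% in untreated gcn4Δ libraries, against 16.1% to 17.9% and 11.6% to 18.6% in wild type. In gcn2Δ they took 12.7% to 16.2% with MMS and 7.38% to 8.12% without, and in mbf1Δ 9.55% to 19.5% and 8.85% to 14.9%. Their part in the results was not tested beyond leaving them out, which is given beside the results it touches.

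MMS lowered nearly every ribosomal protein gene in wild type cells. Of the 137 genes, 136 fell and 1 rose, with a median log2 fold change of -3.14, which is 8.83-fold lower with MMS. The size depends on the scaling, as the median was -2.58 without scaling beyond the library total, where the median of all genes was 0.59, and -2.44 with limma on log2(TPM + 1), where it was 0.55. Over all 5824 genes tested, 83.1% changed (42% rose and 41.2% fell) and the median log2 fold change was 0.02, so a call by itself says little here and the size says more. The fall was at least 2-fold in 136 genes, at least 4-fold in 129, at least 8-fold in 81 and at least 16-fold in 7. How many of all genes fell as far is not given here, so these counts have no background beside them. Calls are those of edgeR's quasi-likelihood test at an adjusted p under 0.05. Counts are relative to the rest of the library and the RNA content of a cell was not measured, so a lower share of the mRNA and fewer molecules per cell cannot be told apart.

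The subunits moved alike. The log2 fold change in wild type had a median of -3.14 over the 81 large subunit genes and of -3.14 over the 56 small subunit genes. The 89 genes whose coding sequence is interrupted by an intron had a median of -3.27, against -2.82 for the 48 genes without one. Genes in pairs had a median of -3.17, against -2.92 for the single-copy genes. These medians are descriptions with no test between the classes.

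**Figure D1:**
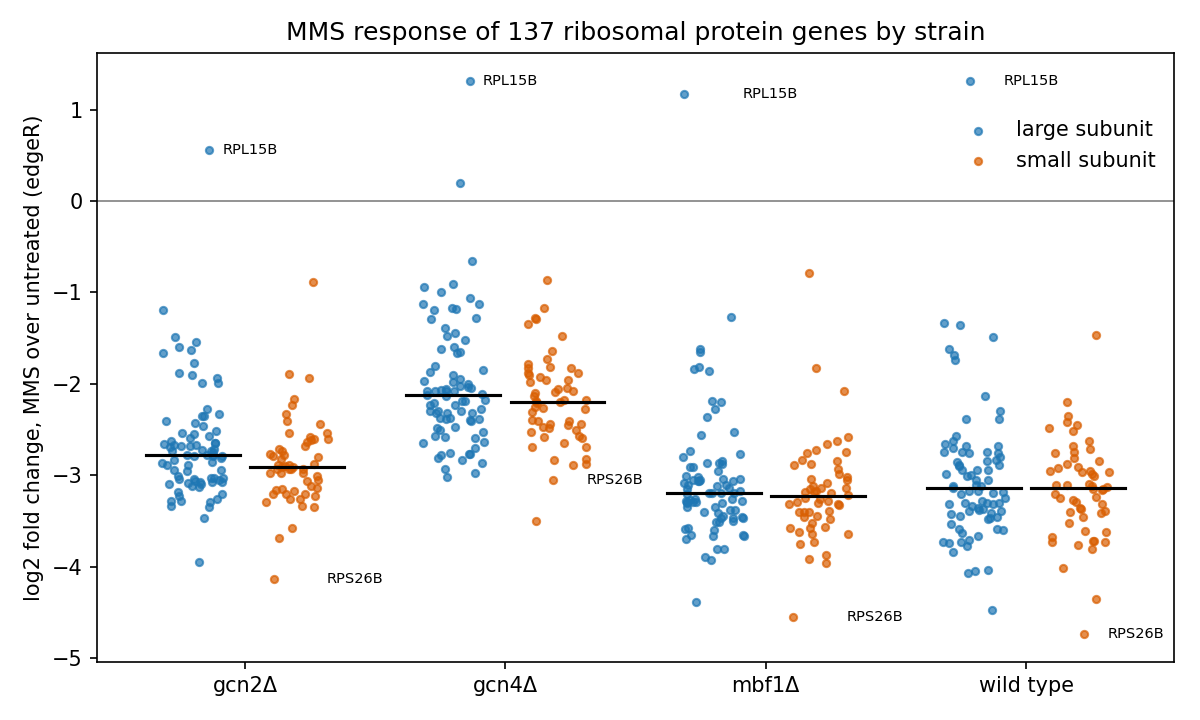
Log2 fold change of each of the 137 ribosomal protein genes, MMS over untreated, in gcn2Δ, gcn4Δ, mbf1Δ and wild type cells (1 point per gene, spread sideways for clarity, edgeR; blue for the large and orange for the small subunit; black bars are medians of a subunit). Nearly all points lie below 0, the gcn4Δ points sit highest with medians of -2.12 and -2.19 against -3.14 and -3.14 in wild type, and RPL15B is above 0 in all 4 strains.

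Among the large subunit genes, RPL3, a single-copy gene for a protein at the peptidyl transferase centre, had 1000, 951 and 994 CPM in MMS-treated against 4826, 5081 and 4518 CPM in untreated wild type libraries. It fell by 2.29 on the log2 scale (SE 0.0821, edgeR adjusted p = 2.35e-17). RPP0, the stalk protein that anchors the acidic proteins P1 and P2, had 1096, 938 and 957 CPM with MMS against 6312, 7048 and 5138 CPM without, and fell by 2.63 (SE 0.172, edgeR adjusted p = 2.04e-12). The groups of both genes lay well apart. All 5 stalk genes fell, with log2 fold changes between -2.38 for RPP2A and -3.11 for RPP1B.

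Among the small subunit genes, RPS3, for a protein at the mRNA entry channel, had 307, 314 and 346 CPM with MMS against 2095, 2137 and 2320 CPM without. It fell by 2.76 on the log2 scale (SE 0.0713, edgeR adjusted p = 5.99e-20). RPS31, which makes a ribosomal protein fused to ubiquitin, had 346, 343 and 374 CPM with MMS against 2865, 3065 and 3375 CPM without, and fell by 3.13 (SE 0.0794, edgeR adjusted p = 4.64e-20). The other ubiquitin fusions, RPL40A and RPL40B of the large subunit, fell by 2.75 (SE 0.0876) and 3.48 (SE 0.128). Free ubiquitin made from these fusions is released by cleavage, so the mRNAs supply ubiquitin as well as ribosomal protein.

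The largest fall was that of RPS26B, whose protein lines the mRNA exit channel. It had 28.2, 26.6 and 29.4 CPM in MMS-treated against 651, 724 and 872 CPM in untreated wild type libraries, and fell by 4.74 on the log2 scale (SE 0.112, edgeR adjusted p = 1.46e-20). RPL9A followed at -4.47 (SE 0.0996, edgeR adjusted p = 6.21e-21). Among the smallest falls were those of RPL9B, RPL41B, RPS9A and RPL41A. RPL41A and RPL41B, which encode the smallest protein of the ribosome, fell by 1.48 (SE 0.0942) and 1.35 (SE 0.115) on the log2 scale. The RPL41 coding sequences are 98.7% identical, so the split of reads between them is uncertain. RPL15B was the 1 gene that rose, and it is described with its pair below. For comparison, RPP1 of RNase P fell by 1.44 (SE 0.117, edgeR adjusted p = 1.01e-10).

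As a share of each library, computed per transcript length as the summed TPM without the rRNA locus, ribosomal protein mRNAs fell to 6.12%, 6.21% and 6.23% in MMS-treated wild type libraries, against 26.7%, 26.6% and 30.4% in untreated ones. The share was 4.51-fold lower with MMS in wild type. In mbf1Δ it was 7.09%, 6.49% and 6.05% with MMS against 29.4%, 29.6% and 27.8% without, a 4.42-fold difference. The MMS and untreated libraries of these strains lay far apart.

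In gcn2Δ the share was 8.97%, 9.41% and 8.73% with MMS against 30.7%, 31.3% and 30.3% without, a 3.40-fold difference. In gcn4Δ it was 12.7%, 12.6% and 12.95% with MMS against 29.8%, 29.8% and 30.98% without, a 2.37-fold difference. After MMS, every gcn4Δ library was above every gcn2Δ library, and every gcn2Δ library was above every mbf1Δ and wild type library. The gcn4Δ share was 2.06 times the wild type share after MMS and 1.08 times before it. With the rRNA locus kept in the total, the mean share was 12.6% in MMS-treated gcn4Δ cells and 4.34% in MMS-treated wild type cells.

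**Figure D2:**
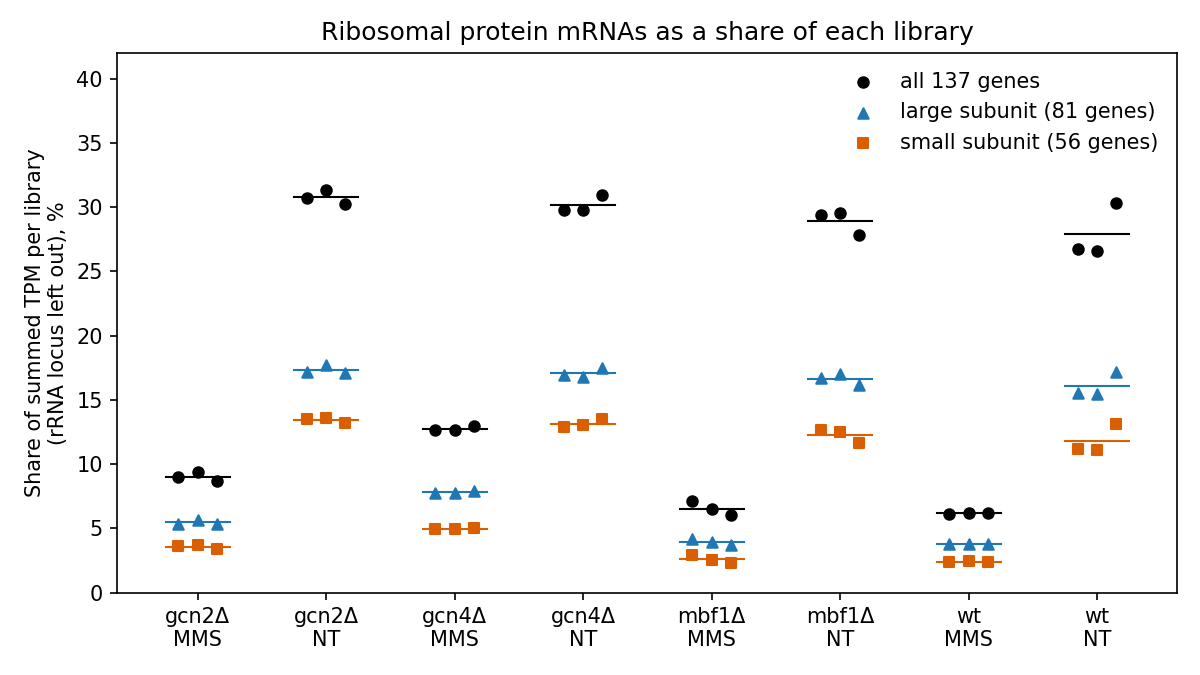
Share of the summed TPM taken by ribosomal protein mRNAs in each library, in percent, with the rRNA locus left out of the total (1 point per library, 3 per group; black for all genes, blue for the large and orange for the small subunit; bars are group means; NT is untreated). For all genes, every MMS library lies at or below 12.95% and every untreated library above 26%, and among MMS libraries those of gcn4Δ are highest.

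The balance between the subunits shifted a little with MMS. The mean TPM of a large subunit gene divided by that of a small subunit gene was 1.09 ± 0.0120 in MMS-treated against 0.945 ± 0.0351 in untreated wild type cells (SD, n = 3 each). It was 1.06 ± 0.0356 against 0.891 ± 0.0109 in gcn2Δ, 1.09 ± 0.00382 against 0.898 ± 0.00988 in gcn4Δ and 1.06 ± 0.0509 against 0.937 ± 0.0227 in mbf1Δ cells. MMS and untreated libraries did not overlap within any strain. With 3 libraries against 3 an exact permutation test cannot give a two-sided p below 0.10, so none was run on this ratio.

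In gcn2Δ cells 136 of the 137 genes fell and 1 rose after MMS, with a median log2 fold change of -2.82, where 81.7% of all genes changed (41.4% rose and 40.4% fell). In gcn4Δ cells 135 fell, 1 rose and RPL4B did not pass the test (log2 fold change 0.20, SE 0.167, edgeR adjusted p = 0.278; nor did the summed RPL4 copies, at -0.33), with a median of -2.18, where 83.3% of all genes changed (40.7% rose and 42.6% fell). In mbf1Δ cells 136 fell and 1 rose, with a median of -3.20, where 82.9% of all genes changed (42.7% rose and 40.1% fell). At least 4-fold falls numbered 121 in gcn2Δ, 89 in gcn4Δ and 128 in mbf1Δ, against 129 in wild type. These counts too have no share of all genes beside them. RPS26B and RPL9A fell most in gcn2Δ, with log2 fold changes of -4.14 and -3.94, and in mbf1Δ, with -4.56 and -4.39. In gcn4Δ the largest falls were those of RPS10A (by 3.50, SE 0.159), a small subunit gene with 103, 98.1 and 109.5 CPM with MMS against 1148, 1138 and 1237 CPM without, and RPS26B (by 3.05, SE 0.101).

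The difference of the responses was tested directly, as the MMS response of a mutant minus that of wild type. These differences share the wild type libraries, so the mutants' values are given side by side and not compared with each other. In gcn4Δ, 129 of the 137 genes had a higher response than in wild type and none a lower one, with a median difference of 1.01 on the log2 scale, where 35.2% of all genes differed (18.8% higher and 16.4% lower) with a median of -0.01. The 8 genes that did not pass were RPL15B, RPL22B, RPL38, RPL41A, RPL41B, RPL9B, RPS23A and RPS30A, named after their values were seen, with differences of 0.01 to 0.67. The median difference was 1.03 for the large and 0.99 for the small subunit, and 1.45 for the 5 stalk genes. With the rRNA locus left out of the fit, 129 genes were again higher and none lower. This setting removes only the genes of that locus, so it cannot test other differences between the libraries of the strains. All gcn4Δ libraries had a low rRNA share, so the deletion and that library difference cannot be told apart.

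RPL4A and RPL4B, whose protein lines the exit tunnel, had the largest differences in gcn4Δ. RPL4A had 3579, 3573 and 3400 CPM in MMS-treated against 6338, 5069 and 5226 CPM in untreated gcn4Δ libraries, and 1365, 1229 and 1397 CPM against 7518, 7949 and 5435 CPM in wild type. RPL4B had 2683, 2688 and 2559 CPM against 2646, 2102 and 2173 CPM in gcn4Δ, and 965, 838 and 957 CPM against 3031, 3262 and 2211 CPM in wild type. The MMS groups thus overlapped the untreated ones for RPL4B in gcn4Δ and lay far below them in wild type. The differences were 1.73 (SE 0.224, edgeR adjusted p = 1.85e-06) and 1.82 (SE 0.238, edgeR adjusted p = 2.25e-06). Copies of this pair are 98.9% identical in coding sequence, and their reads are hard to tell apart. The summed pair differed by 1.82 (SE 0.229, edgeR adjusted p = 1.37e-06).

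Stalk, core and ubiquitin fusion genes also responded less in gcn4Δ. RPP0 had 2641, 2593 and 2467 CPM in MMS-treated against 6100, 5215 and 4774 CPM in untreated gcn4Δ libraries, and its response was 1.57 higher than in wild type (SE 0.231, edgeR adjusted p = 1.18e-05). RPL3 was 1.38 higher (SE 0.111) and RPS3 1.12 higher (SE 0.0946). Of the ubiquitin fusions, RPS31 was 1.17 higher (SE 0.104), RPL40A 0.78 higher (SE 0.116) and RPL40B 0.73 higher (SE 0.164), although RPL40B missed the threshold without scaling (edgeR adjusted p = 0.0747) and with limma on log2(TPM + 1) (adjusted p = 0.0991). RPL41A and RPL41B had differences of 0.09 (SE 0.130) and 0.19 (SE 0.159), with edgeR adjusted p-values of 0.615 and 0.379. RPP1 of RNase P, no ribosomal protein, was 1.00 higher (SE 0.158, edgeR adjusted p = 3.07e-05).

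In gcn2Δ, 64 genes had a higher response than in wild type and 1 a lower one, with a median difference of 0.30, where 35.9% of all genes differed (18.6% higher and 17.3% lower) with a median of 0.03. The highest were RPL18B and RPL7B, both of the large subunit. RPL18B had 53.1, 54.6 and 59.03 CPM in MMS-treated against 341, 390 and 344 CPM in untreated gcn2Δ libraries, and 27.7, 25.9 and 29.1 CPM against 366, 388 and 377 CPM in wild type. Its difference was 1.09 (SE 0.0990, edgeR adjusted p = 1.53e-08), and that of RPL7B was 0.99 (SE 0.104, edgeR adjusted p = 1.24e-07). The 1 lower gene was RPL15B. On log2(TPM + 1) values limma called 31 genes, 30 of them higher. The share of all genes that limma called is not given here, so the 31 have no background beside them.

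In mbf1Δ, 7 genes had a higher response than in wild type and 11 a lower one, with a median difference of -0.06, where 24% of all genes differed (11.6% higher and 12.4% lower) with a median of 0.02. The median of -0.06 changed sign without scaling (0.035), with limma on log2(TPM + 1) (0.0033) and without mbf1Δ MMS replicate 3 (0.0027). The called share of the ribosomal protein genes was below that of all genes. RPL18B was 0.86 higher (SE 0.0994, edgeR adjusted p = 9.18e-07) and RPS9A 0.69 higher (SE 0.102, edgeR adjusted p = 2.92e-05). RPS2, at the mRNA entry channel, had 524, 665 and 650 CPM with MMS against 4150, 4692 and 4732 CPM without in mbf1Δ, and 813, 827 and 862 CPM against 4402, 4815 and 4189 CPM in wild type. Its difference was -0.46 (SE 0.143, edgeR adjusted p = 0.0213), and that of RPS15 was -0.36 (SE 0.103, edgeR adjusted p = 0.0136). The RPS2 call was lost without wild type NT replicate 3 (-0.42), without mbf1Δ NT replicate 3 (-0.43) and without mbf1Δ MMS replicate 1 (-0.35). The RPS15 call was lost without scaling beyond the library total (-0.27) and with limma on log2(TPM + 1) (-0.27). The count of 18 fell to 8 genes, 6 higher and 2 lower, without scaling. It was 9, 6 higher and 3 lower, with limma on log2(TPM + 1). Without wild type NT replicate 1, wild type MMS replicate 2 or wild type MMS replicate 3 it was 11. Without mbf1Δ NT replicate 1 it was 9. For these other fits the share of all genes is not given here, so the counts have no background beside them.

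**Figure D3:**
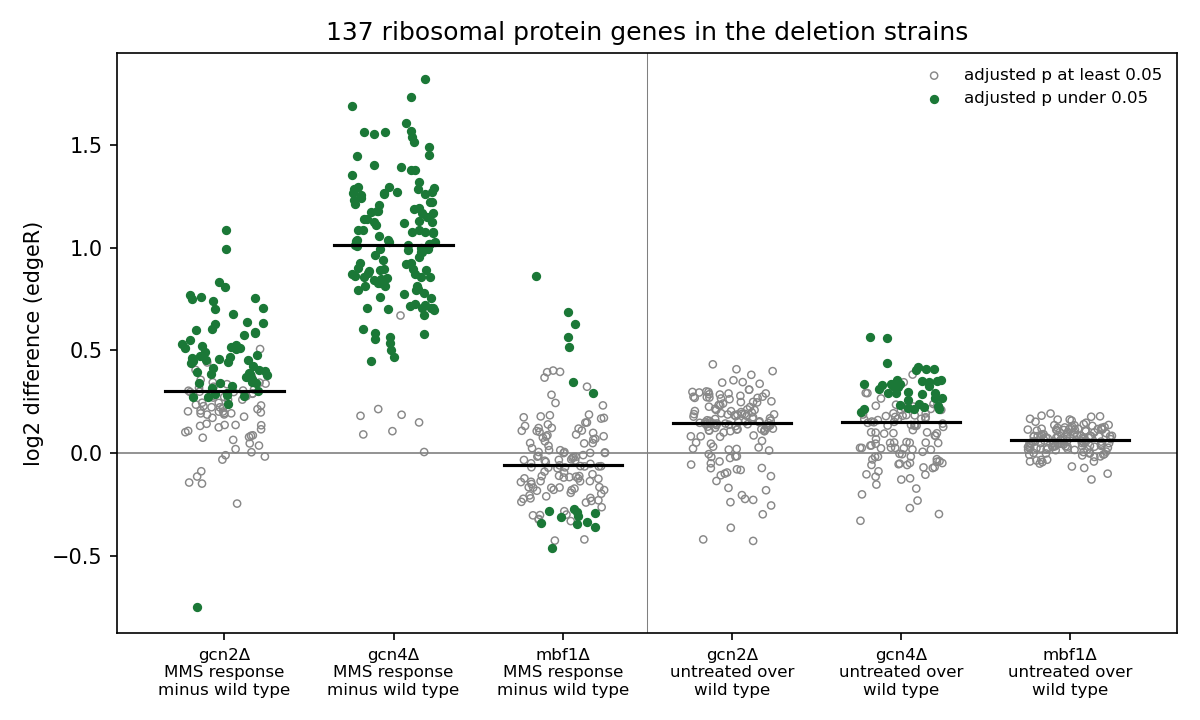
Left, difference of the MMS response of each mutant from that of wild type, and right, untreated mutant over untreated wild type, for 137 ribosomal protein genes on the log2 scale (1 point per gene; filled points have an edgeR adjusted p under 0.05; bars are medians). The gcn4Δ differences lie around 1.01, those of gcn2Δ around 0.30 and those of mbf1Δ around -0.06.

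Without MMS, 37 genes were higher in gcn4Δ than in wild type and none lower, with a median log2 difference of 0.15, where 19.3% of all genes differed (9.19% higher and 10.1% lower). The highest was RPL38, a large subunit gene with 1257, 1241 and 1288 CPM in untreated gcn4Δ against 734, 694 and 1132 CPM in untreated wild type libraries (log2 difference 0.56, SE 0.190, edgeR adjusted p = 0.0423). The groups did not overlap, but wild type replicate 3 lay close to gcn4Δ. The RPL38 call was lost in 12 of the 24 fits that left out 1 library, for example without wild type NT replicate 2 (0.43).

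The median of 0.15 became 0.47 without scaling and 0.59 with limma on log2(TPM + 1), where the medians of all genes were 0.34 and 0.42. In untreated gcn2Δ the median was likewise 0.15, and 0.39 and 0.46 under those settings, where the medians of all genes were 0.28 and 0.33. The count of 37 rested on few libraries. It was 9 without wild type NT replicate 1, 10 without wild type NT replicate 2, and 77 (74 higher, 3 lower) without wild type NT replicate 3. It was 17, 23 and 10 without gcn4Δ NT replicate 1, 2 or 3, and 22 without gcn4Δ MMS replicate 2. It was 131 without scaling beyond the library total and 133 with limma on log2(TPM + 1). In gcn2Δ none of the 137 genes passed edgeR's test, where 0.446% of all genes did (0.12% higher and 0.326% lower); 69 had an unadjusted p under 0.05 and DESeq2 called 1. The count of genes passing was 70 (68 higher) without wild type NT replicate 3 and 16 without mbf1Δ MMS replicate 1. It was 105 without scaling and 122 with limma on log2(TPM + 1). For the counts in this paragraph from other settings or at an unadjusted p, shares of all genes are not given here. Those counts cannot be read against a background. In mbf1Δ none passed edgeR's test, where 0.172% of all genes did (0.0172% higher and 0.155% lower); 4 had an unadjusted p under 0.05 and DESeq2 called none.

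The 59 pairs differ far less in their coding than in their upstream sequence. Coding identity had a median of 93.2% and ran from 69.2% for the stalk pair RPP1A and RPP1B to 99.4% for RPL1A and RPL1B, and 21 pairs encode identical proteins. The 300 bases before the start codon, aligned end to end, were 48.0% identical in the median pair. The same alignment of copy A of one pair with copy B of another gave a median of 46.9% over 3422 combinations. Coding identity was at least 97% in 9 pairs, RPL1, RPL4 and RPL41 among them. Reads from the coding part of such copies are hard to assign, while flanking bases can separate them. Only 22.96% of the 31-base words of RPL4A and 30.2% of those of RPL4B occurred in no other quantified gene. The median over the pairs' genes was 84.7%, and both RPL41 copies had 89.7%. A copy had under 50% such words in 6 pairs, a set that differs from the 9.

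The copies were seldom equally abundant. In untreated wild type cells, copy A had the higher TPM in 34 pairs and copy B in 25, and the copies differed at least 2-fold in 25 pairs. After MMS, copy A was higher in 32 pairs and copy B in 27, and 30 pairs differed at least 2-fold. The more abundant copy changed, with no library of either group on the other side, in 5 pairs, RPL9, RPP1, RPS10, RPS18 and RPS23. In RPS6 it changed by the group means only, as the untreated libraries lay on both sides of an equal ratio. The less abundant copy fell less in 22 of the called pairs and more in 24, in wild type. In gcn2Δ the counts were 22 and 23 of 45 called pairs and in mbf1Δ 23 and 23 of 46, while in gcn4Δ the less abundant copy fell less in 17 and more in 32 of 49. The lowest of all members in untreated wild type cells was RPL15B at 18.6 TPM, below RPL22B at 118 TPM, and the highest was RPP2B at 4271 TPM.

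MMS changed the A to B ratio in 46 of the 59 pairs in wild type cells by limma on log2 ratios of TPM + 1, where 87.1% of the 379 paralog pairs of the genome that were tested changed. Ribosomal protein pairs were thus called no more often than paralogs in general, and their changes were smaller, with a median absolute log2 change of 0.46 against 1.18 in the other pairs. Copy A was the less lowered in 18 pairs and copy B in 28. The change was at least 2-fold in 10 pairs. It passed the test in 45 pairs in gcn2Δ, 49 in gcn4Δ and 46 in mbf1Δ cells, where 84.7%, 87.1% and 86.5% of all pairs changed. The largest changes in wild type were those of RPL15, RPL9, RPS9, RPS26, RPL22 and RPS30.

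**Figure D4:**
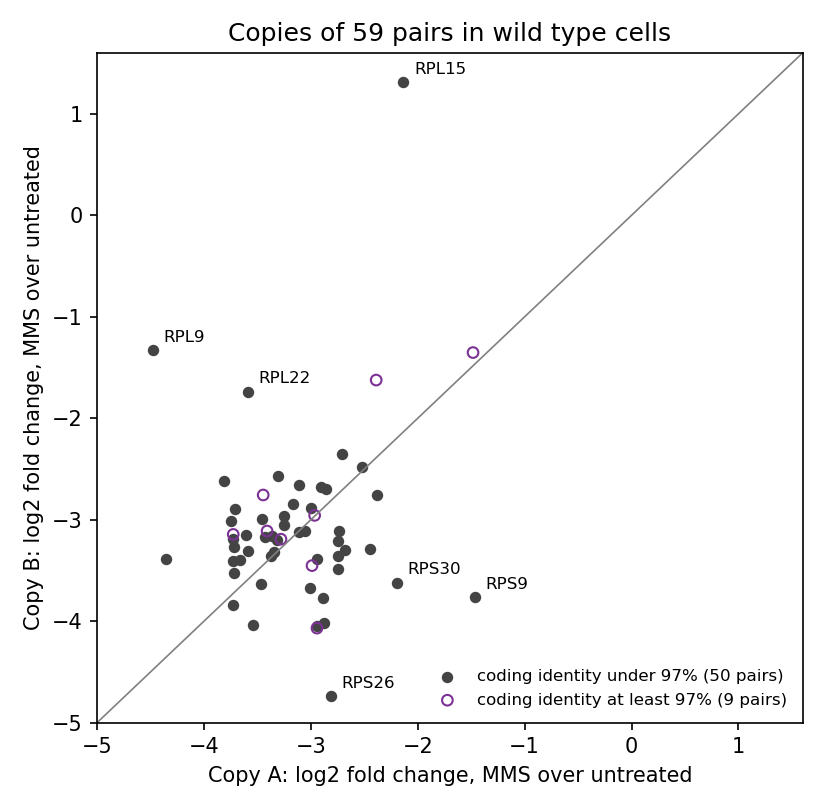
Log2 fold change of copy B against that of copy A, MMS over untreated, in wild type cells for 59 pairs (1 point per pair; open circles are pairs with near-identical coding sequences; the line marks equal change). Most pairs cluster near -3 on both axes, while RPL15, RPL9, RPL22, RPS9, RPS26 and RPS30 lie far from the line.

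The upstream sequences of the 3 pairs that differed most are shown because their coding sequences are 90.9% to 93.8% identical while the windows below differ almost throughout. Each window covers 200 bases and ends 100 bases before the start codon, 5′ to 3′ on the strand of the gene, read from the NCBI RefSeq R64 genome: RPL15A at chrXII:202691-202890 (minus strand), RPL15B at chrXIII:510449-510648 (minus), RPL9A at chrVII:228430-228629 (minus), RPL9B at chrXIV:499381-499580 (plus), RPS9A at chrXVI:404650-404849 (plus) and RPS9B at chrII:604208-604407 (plus). Capitals mark matches to a core of the Rap1 motif, ACANCC followed by any 3 bases and CA, searched on both strands.
RPL15A: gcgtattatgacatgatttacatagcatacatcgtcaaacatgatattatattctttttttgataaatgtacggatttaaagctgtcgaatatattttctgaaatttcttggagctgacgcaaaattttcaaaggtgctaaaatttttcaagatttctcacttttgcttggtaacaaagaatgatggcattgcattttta
RPL15B: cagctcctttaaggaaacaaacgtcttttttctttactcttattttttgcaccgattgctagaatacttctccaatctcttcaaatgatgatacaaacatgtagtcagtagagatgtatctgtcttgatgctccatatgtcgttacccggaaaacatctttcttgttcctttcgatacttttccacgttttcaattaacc
RPL9A: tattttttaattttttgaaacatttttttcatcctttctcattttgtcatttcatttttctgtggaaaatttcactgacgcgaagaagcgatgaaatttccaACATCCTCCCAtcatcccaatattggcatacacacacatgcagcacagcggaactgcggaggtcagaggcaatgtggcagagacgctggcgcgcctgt
RPL9B: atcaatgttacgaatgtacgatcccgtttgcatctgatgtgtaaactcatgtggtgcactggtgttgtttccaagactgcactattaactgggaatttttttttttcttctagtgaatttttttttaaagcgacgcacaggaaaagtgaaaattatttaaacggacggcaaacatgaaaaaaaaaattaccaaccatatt
RPS9A: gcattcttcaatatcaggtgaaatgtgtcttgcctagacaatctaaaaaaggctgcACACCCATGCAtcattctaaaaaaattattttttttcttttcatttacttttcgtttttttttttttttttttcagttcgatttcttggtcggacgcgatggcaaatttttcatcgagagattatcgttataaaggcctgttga
RPS9B: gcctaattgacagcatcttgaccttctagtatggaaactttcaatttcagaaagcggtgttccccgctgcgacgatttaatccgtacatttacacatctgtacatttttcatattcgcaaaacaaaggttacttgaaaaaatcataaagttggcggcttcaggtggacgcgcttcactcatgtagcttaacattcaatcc

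RPL9A and RPS9A each held 1 match, starting 198 and 244 bases before the start codon, and the other 4 windows held none. The RPL9 match belongs to the copy that fell more and the RPS9 match to the copy that fell less. Within 500 bases before the start codon, this core matched on either strand in 55 of the 137 genes (40.1%), against 5.60% of 5890 genes with such a window. The 55 genes had a median log2 fold change of -3.19 in wild type and the 82 without a match -3.12. The Gcn4 motif TGACTC matched in 9 genes (6.57%, against 12.9% of all genes), the PAC element GATGAG in 21.9% against 27.8%, RRPE, AAAAATTTT, in 9.49% against 9.64%, and the Abf1 consensus in 9.49% against 18.1%. The 9 genes with a TGACTC match had a median gcn4Δ difference of 1.03, against 1.01 over all members. A match is a run of letters and not a site shown to be bound.

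RPL15 encodes a protein of the large subunit core, and its copies (YLR029C, chrXII:201976-202590, and YMR121C, chrXIII:509734-510348, R64) differ at 2 residues. RPL15B had 57.2, 54.8 and 58.2 CPM in MMS-treated against 23.5, 23.2 and 22.0 CPM in untreated wild type libraries, and rose by 1.31 on the log2 scale (SE 0.100, edgeR adjusted p = 3.3e-11). RPL15A had 430.3, 458 and 446 CPM with MMS against 1861, 1994 and 2003 CPM without, and fell by 2.13 (SE 0.0775, edgeR adjusted p = 3.04e-17). The copies moved in opposite directions with no overlap between the groups, and RPL15B remained the minor copy. Per length, the log2 ratio of copy A to copy B was 3.04, 3.19 and 3.07 with MMS against 6.36, 6.48 and 6.57 without, a change of -3.37 (SE 0.111, limma adjusted p = 1.13e-17). Copy A supplied 89.7% of the pair's TPM with MMS and 98.9% without.

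RPL15B rose in every strain. It had 35.5, 31.8 and 33.6 CPM with MMS against 23.9, 22.2 and 22.2 CPM without in gcn2Δ cells, and rose there by 0.56 (SE 0.0966, edgeR adjusted p = 1.39e-05). It rose by 1.32 (SE 0.0962) in gcn4Δ, with 44.8, 52.4 and 48.4 CPM against 22.0, 19.4 and 17.0 CPM, and by 1.17 (SE 0.0996) in mbf1Δ, with 43.3, 51.9 and 52.4 CPM against 18.5, 22.8 and 23.9 CPM. The rise was smaller in gcn2Δ than in wild type by 0.75 (SE 0.139, edgeR adjusted p = 0.000203), and in gcn4Δ the difference from wild type was 0.01 (SE 0.137, edgeR adjusted p = 0.981). RPL15A instead responded less in both strains, by 0.47 in gcn2Δ (SE 0.105, edgeR adjusted p = 0.00118; limma on log2(TPM + 1) adjusted p = 0.0636) and by 1.14 in gcn4Δ (SE 0.105, edgeR adjusted p = 1.27e-08). The ratio change accordingly differed from wild type by 1.19 in gcn2Δ (limma adjusted p = 2.57e-06) and by 1.12 in gcn4Δ (limma adjusted p = 4.79e-06). Of the 31-base words of RPL15A and RPL15B, 87.5% and 85.7% occurred in no other quantified gene.

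RPL9 encodes a protein beside the stalk base, and its copies (YGL147C, chrVII:227754-228329, and YNL067W, chrXIV:499681-500256) differ at 4 residues. RPL9A had 45.0, 43.0 and 45.8 CPM in MMS-treated against 924, 943 and 1103 CPM in untreated wild type libraries. RPL9B had 148, 166 and 163 CPM with MMS against 401, 386 and 411 CPM without, and fell by 1.33 (SE 0.0635, edgeR adjusted p = 5.51e-15). The order of the copies turned over, as copy A supplied 23.4% of the pair's TPM with MMS and 72.6% without, and the log2 ratio changed by -3.09 (SE 0.0851, limma adjusted p = 5.02e-19). In gcn4Δ, RPL9A had 154, 150 and 161 CPM with MMS against 1124, 1074 and 1198 CPM without, and its response was 1.61 higher than in wild type (SE 0.123, edgeR adjusted p = 7.59e-10). RPL9B there had a difference of 0.15 (SE 0.0880, edgeR adjusted p = 0.196). The ratio change in gcn4Δ differed from wild type by 1.42 (limma adjusted p = 5.34e-09), and copy A supplied 45.3% of the pair after MMS.

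RPS9 encodes a protein that affects decoding accuracy, and its copies (YPL081W, chrXVI:404950-406044, and YBR189W, chrII:604508-605508, each with 1 intron in the coding sequence) differ at 5 aligned positions. RPS9A, the minor copy, had 55.3, 51.7 and 55.1 CPM in MMS-treated against 146, 139 and 163 CPM in untreated wild type libraries, and fell by 1.47 (SE 0.0737, edgeR adjusted p = 1.39e-14). RPS9B had 122, 126 and 134 CPM with MMS against 1662, 1676 and 1846 CPM without, and fell by 3.76 (SE 0.0756, edgeR adjusted p = 1.48e-21). The log2 ratio of A to B was -1.09, -1.24 and -1.23 with MMS against -3.42, -3.50 and -3.41 without, a change of 2.26 (SE 0.0626, limma adjusted p = 5.46e-19). Copy A supplied 30.4% of the pair with MMS and 8.40% without in wild type, and 39.1% and 8.46% in mbf1Δ. RPS9A had 86.4, 99.4 and 90.2 CPM in MMS-treated mbf1Δ libraries, all above those of wild type.

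In the RPS26 pair, RPS26A had 219, 194 and 231 CPM with MMS against 1402, 1511 and 1602 CPM without, and fell by 2.81 (SE 0.0773, edgeR adjusted p = 1.82e-19), less than RPS26B. Copy A supplied 88.7% of the pair with MMS and 66.5% without, a log2 ratio change of 1.95 (SE 0.0707, limma adjusted p = 6.76e-17). In the RPS30 pair, RPS30A had 121, 140 and 141 CPM with MMS against 549, 519 and 768 CPM without, and RPS30B had 36.1, 37.2 and 39.5 CPM against 447, 429 and 513 CPM. Copies of RPS30 encode identical proteins, and they were near equal without MMS (51.7% from copy A) and unequal with it (74.3%), a log2 ratio change of 1.45 (SE 0.126, limma adjusted p = 4.04e-10).

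RPL22 is the most diverged of these 6 pairs, with a coding identity of 78.9% and 19 differing residues, and in yeast Rpl22 is known to act on the intron of RPL22B. RPL22A had 82.5, 81.6 and 87.1 CPM with MMS against 921, 1018 and 1075 CPM without in wild type, and fell by 3.59 (SE 0.0787, edgeR adjusted p = 4.97e-21). RPL22B had 16.7, 18.6 and 17.5 CPM against 54.0, 55.8 and 66.1 CPM, and fell by 1.74 (SE 0.117, edgeR adjusted p = 3.24e-12). In gcn4Δ the response of RPL22A was 1.29 higher than in wild type (SE 0.101, edgeR adjusted p = 1.08e-09), while RPL22B differed by 0.21 (SE 0.156, edgeR adjusted p = 0.299). The files give 1 value per gene and no value for unspliced RNA.

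**Figure D5:**
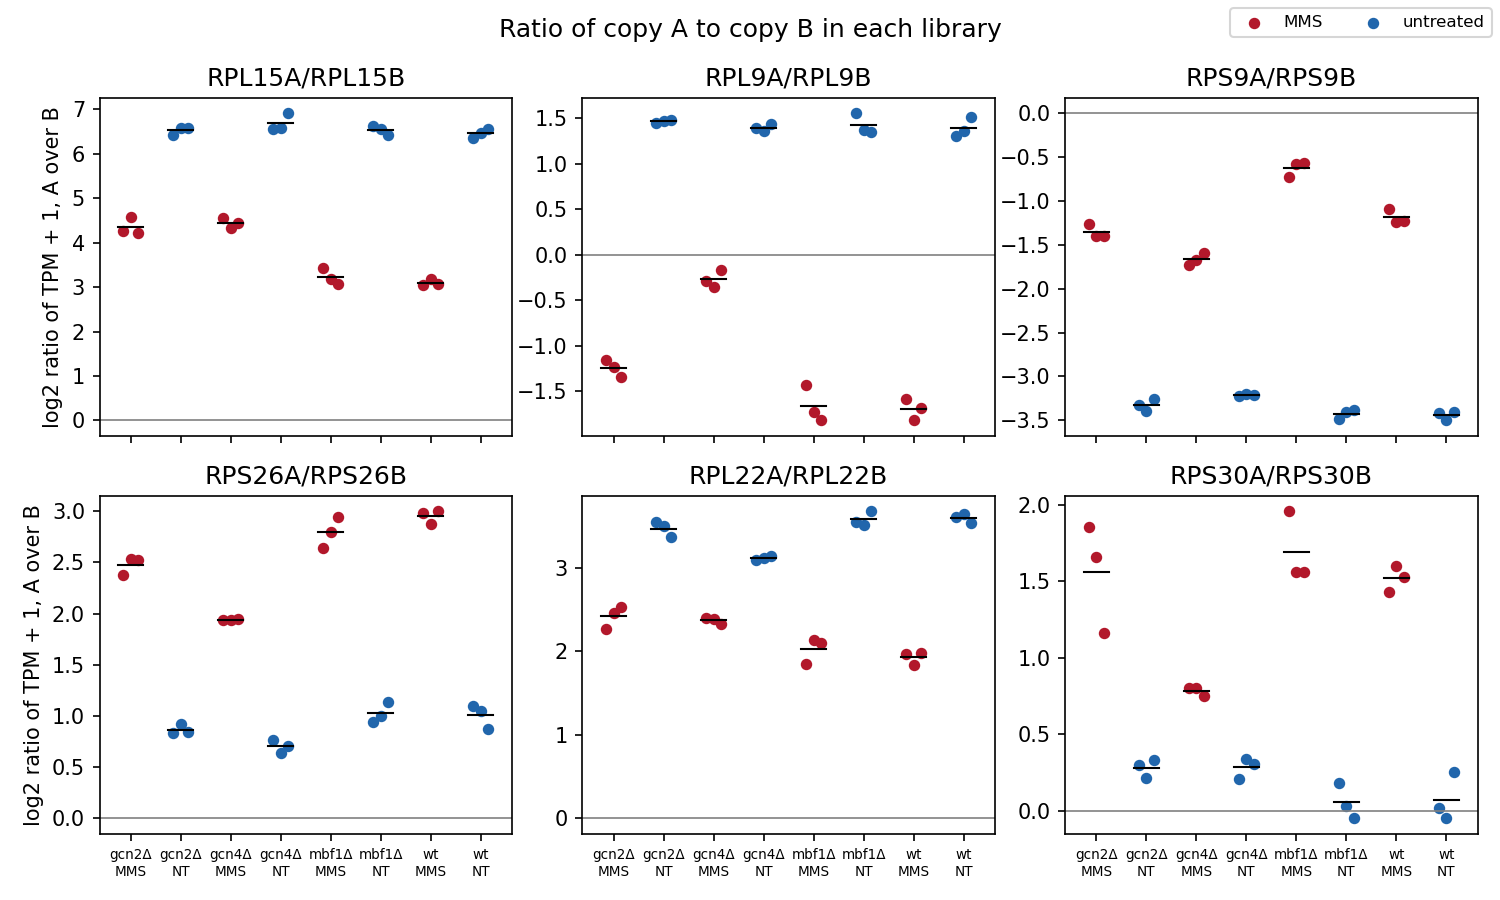
Log2 ratio of TPM + 1 of copy A to copy B in each library for the 6 pairs with the largest ratio change in wild type (1 point per library, 3 per group; bars are group means; NT is untreated). RPL9 crosses 0 with MMS in all 4 strains and stays nearest to 0 in gcn4Δ, and RPL15 falls least in gcn2Δ and gcn4Δ.

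The ratio changes of 30 pairs differed between gcn2Δ and wild type, where 52.8% of all pairs did, of 31 between gcn4Δ and wild type, where 47.8% did, and of 14 between mbf1Δ and wild type, where 32.7% did. RPL8, a large subunit pair differing at 7 residues, had a log2 ratio of -0.54, -0.48 and -0.53 with MMS against -1.84, -1.89 and -1.86 without in mbf1Δ, and of -1.31, -1.35 and -1.36 against -1.78, -1.88 and -1.82 in wild type. The difference was 0.86 (limma adjusted p = 4.07e-10). RPL8A had 175, 213 and 195 CPM in MMS-treated mbf1Δ against 131, 127 and 138 CPM in MMS-treated wild type libraries, and its response was 0.56 higher (SE 0.0912, edgeR adjusted p = 8.47e-05). That of RPL8B was -0.31 (SE 0.105, edgeR adjusted p = 0.0383), a call that was lost without scaling (-0.23), with limma on log2(TPM + 1) (-0.23) and in 10 of the 24 fits that left out 1 library. Without MMS, the ratio differed from wild type in 14 pairs in gcn4Δ, where 26.9% of all pairs did. The count was 9, 10 and 21 without wild type NT replicate 1, 2 or 3, and 7 without gcn4Δ NT replicate 3. The ratio differed in no pair in gcn2Δ and in no pair in mbf1Δ by limma, where 5.01% and 0.528% of all pairs did. Without wild type NT replicate 3 it differed in 10 pairs in gcn2Δ. For the fits that left out 1 library, the share of all pairs is not given here.

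The median absolute log2 ratio change in wild type was 0.46 in the 9 near-identical pairs, of which 6 passed the test, and 0.44 in the other 50. It was 0.37 against 0.36 in gcn2Δ, 0.34 against 0.32 in gcn4Δ and 0.24 against 0.42 in mbf1Δ. For the difference of the ratio change from wild type, the median absolute value was lower in the near-identical than in the other pairs. It was 0.09 against 0.20 for gcn2Δ, 0.09 against 0.24 for gcn4Δ and 0.09 against 0.13 for mbf1Δ. None of these medians was tested. RPL35, RPL4 and RPL1 were among those that passed, and RPL41, RPL42 and RPS4 had changes of 0.00 to -0.06 that did not. Since the reads of such copies can be assigned to the wrong copy, their values were also summed. Summed, all 9 fell in wild type, by 1.48 (RPL41) to 3.42 (RPS6) on the log2 scale. In gcn4Δ 8 of the 9 fell, and the summed RPL4 pair did not pass the test, with a log2 fold change of -0.33 (SE 0.161, edgeR adjusted p = 0.0664). Of the 78 proteins with copies summed, 78 fell in wild type, and 76 had a higher response in gcn4Δ than in wild type. Shares of all genes in that fit are not given here.

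Most genes of the proteins that accompany free ribosomal proteins fell too. Of 12 genes listed as chaperones and escorts of ribosomal proteins, 11 fell and none rose in wild type, where 41.2% of all genes fell. Their median log2 fold change was -2.71, against 0.02 over all genes. The exception was NAP1, at 0.19 (SE 0.127, edgeR adjusted p = 0.169), which rose in gcn2Δ (0.36) and gcn4Δ (0.78) cells. All 12 had a higher response in gcn4Δ, with a median difference of 0.73, where 18.8% of all genes did. In gcn2Δ 11 had one, where 18.6% of all genes did. In mbf1Δ 6 had one and none a lower response, with a median difference of 0.40, where 11.6% of all genes were higher. RRB1, which accompanies Rpl3, fell by 3.88 (SE 0.0839), PUF6 by 4.46 (SE 0.103) and SYO1, which carries Rpl5 and Rpl11, by 4.58 (SE 0.107). Their gcn4Δ differences were 1.21 (SE 0.107), 1.52 (SE 0.132) and 1.20 (SE 0.140). ASC1 and STM1, which encode proteins bound to the ribosome, fell by 3.28 (SE 0.203) and 3.16 (SE 0.0771) and were 2.05 (SE 0.265) and 1.18 (SE 0.101) higher in gcn4Δ.

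Of 14 regulators of these genes, 10 fell and 3 rose in wild type, with a median of -0.52, where 41.2% of all genes fell and 42% rose. TOD6, a repressor that binds the PAC element, fell by 3.94 (SE 0.0975, edgeR adjusted p = 3.19e-20) and UTP22, a partner of Ifh1 in the CURI complex, by 1.99 (SE 0.0697, edgeR adjusted p = 1.54e-17). FHL1, which recruits Ifh1 to the promoters, fell by 1.17 (SE 0.0703, edgeR adjusted p = 4.25e-13). In gcn4Δ, 4 regulators had a higher and 1 a lower response than in wild type, a share of the 14 close to the 35.2% of all genes called there. TOD6 was 1.14 higher (SE 0.126) and UTP22 0.61 higher (SE 0.0948), and TOR1, the kinase of the TOR pathway, was the lower one at -0.40 (SE 0.0831, edgeR adjusted p = 0.000673). In gcn2Δ, 5 regulators had a higher and 2 a lower response, where 18.6% and 17.3% of all genes did. In mbf1Δ, 5 had a higher and none a lower response, where 11.6% and 12.4% of all genes did.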

How the data were processed

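Poly-A RNA of 24 yeast libraries was sequenced as paired reads of 150 bases, per the labels' protocols. The authors made the deposited files with Salmon 1.10.1, and the submitters' processing notes also name fastp, FastQC 0.11.9, DESeq2 1.38.3 and the R64 build. Per the file headers, the authors' files give an estimated count and TPM per gene. For 5907 of 5909 genes matched to R64 the deposited length equals the coding length plus 400 bases, so a gene model takes in flanking bases and a close neighbour's reads, and 17 of the 137 genes have a neighbour's coding sequence within 200 bases.

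The estimated counts were rounded and fitted with edgeR 4.0.16 (R 4.3.3; filterByExpr with a minimum count of 10, TMM, 1 coefficient per group, 16 residual degrees of freedom), adjusted by Benjamini-Hochberg over 5824 genes in each of 10 contrasts, two-sided. The SE is the one edgeR's test statistic implies. The biological coefficient of variation was 8.49%. CPM are scaled by TMM. Ratios of copies were tested with limma 3.58.1 on log2((TPM + 1)/(TPM + 1)) over 379 paralog pairs (reciprocal best hits, blastp 2.17.0, at least 50% identity, both copies reaching 5 TPM). Scripts were tested on simulated data. The authors' comparison tables were not used here.

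The members, lists and tests were chosen with earlier results of these data known. Named genes were the 2 highest and 2 lowest called members of each response and interaction, 1 and 1 of each untreated contrast, with a mean of at least 50 counts, both copies of the 6 pairs with the largest ratio change in wild type and of 2 pairs per interaction, a fixed set (RPL15, RPL22, RPL40 and RPL41 copies, RPL3, RPS3, RPP0, RPS31, RPP1), and up to 3 members per other list with the smallest adjusted p; some results under this rule are not reported here. Motifs were counted in 500 bases upstream, not the 300 first planned, in the R64 genome of NCBI RefSeq. Whether the libraries keep strand is not given in the sources used here, so reads of a gene and of antisense RNA cannot be told apart. Depth was 13518147 to 28366559 counts per library, and libraries amplified without molecular identifiers give counting error only a lower bound on error.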

Additional observations from a re-analysis of the deposited data

Results flagged for a closer look

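Results below differ between a mutant and wild type by the test of the difference itself. In gcn4Δ the MMS response differed from wild type in 129 ribosomal protein genes (where 35.2% of all genes differed) and the A to B ratio change in 31 of 59 pairs (where 47.8% of all paralog pairs did), with RPL4B at 1.82 and RPL4A at 1.73 on the log2 scale, the RPL9 ratio at 1.42 and the RPL15 ratio at 1.12. In gcn2Δ the response differed in 65 genes, where 35.9% of all genes differed. That count was 52 to 85 in fits that left out 1 library, and 31 with limma on log2(TPM + 1). Those other counts have no share of all genes beside them. The ratio change differed in 30 pairs, or 50.8% against 52.8% of all pairs. RPL18B was at 1.09, RPL7B at 0.99, RPL15B at -0.75 and the RPL15 ratio at 1.19. In mbf1Δ the response differed in 18 genes, or 13.1% against 24% of all genes, and the ratio change in 14 pairs, or 23.7% against 32.7% of all pairs, both below the share of all features. Among them were RPL18B at 0.86, RPS9A at 0.69, RPS15 at -0.36, RPS2 at -0.46 and the RPL8 ratio at 0.86. The call of RPS15 was lost without scaling and with limma on log2(TPM + 1), and that of RPS2 in 3 fits that left out 1 library.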

How the results depend on the processing

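Of 2233 recomputed values of 72 named results, 2197 kept their direction and side of the threshold, 33 lost the call, 3 gained it and 0 reversed. Most of these values came from fits that left out 1 library, often one outside the comparison, which leaves the estimate nearly unchanged. Many of the results were also named for their large size, so the count of kept values says little about weaker results. With TMM scaling, the median over all genes was 0.02 in the wild type, 0.03 in gcn2Δ, -0.02 in gcn4Δ and 0.05 in mbf1Δ responses. Without it, these medians were 0.59, 0.61, 0.46 and 0.70. The median of the ribosomal protein genes then became -2.58, -2.24, -1.70 and -2.53, and with limma on log2(TPM + 1) -2.44, -2.11, -1.53 and -2.44. With copies summed, the gcn4Δ response had a median of -2.12.

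Without scaling, the median gcn4Δ difference in response was 0.94 and the mbf1Δ one 0.035, of the opposite sign to -0.06, as it was with limma on log2(TPM + 1) (0.0033) and without mbf1Δ MMS replicate 3 (0.0027). The called share of genes in the gcn2Δ difference was 22.6% with limma on log2(TPM + 1), against 47.4%. In the mbf1Δ difference it was 5.84% without scaling, 7.69% with copies summed and 6.57% with limma on log2(TPM + 1), against 13.1%. In untreated gcn2Δ it was 76.6% without scaling, 89.1% with limma on log2(TPM + 1) and 0.73% with DESeq2, against 0%, and the median was 0.39 without scaling and 0.46 with limma. In untreated gcn4Δ it was 95.6% without scaling, 15.4% with copies summed and 97.1% with limma, against 27.0%, and the median was 0.47 without scaling and 0.59 with limma. In untreated mbf1Δ the median was 0.17 with limma. The cause was not tested. Shares of all genes called under these settings are not given here, so the called shares have no background beside them.

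With the rRNA locus kept in the total, the mean share of ribosomal protein mRNAs was 6.74% in MMS-treated and 26.7% in untreated gcn2Δ, 4.72% and 22.8% in mbf1Δ, and 4.34% and 20.6% in wild type cells. As a share of estimated counts it was 4.86% and 18.7% in gcn2Δ, 7.67% and 18.6% in gcn4Δ, 3.49% and 17.4% in mbf1Δ, and 3.41% and 16.6% in wild type cells.

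Leaving out 1 library at a time, the called share ran from 38.0% to 62.0% in the gcn2Δ difference and from 6.57% to 16.1% in the mbf1Δ difference. It ran from 0% to 51.1% in untreated gcn2Δ and from 6.57% to 56.2% in untreated gcn4Δ. The median gcn4Δ difference ran from 0.93 to 1.08. The share of pairs with a changed ratio ran from 0% to 16.9% in untreated gcn2Δ and from 11.9% to 35.6% in untreated gcn4Δ. Same-numbered libraries did not deviate together as a set (median correlation -0.0187 over 84 library pairs, 15 of them over 0.1). The correlations ran from -0.552 to 0.538. Most of these library pairs join different strains, so the median cannot show whether the numbers pair samples within a strain. With the replicate number as a block, the gcn2Δ difference had 58 called genes, the gcn4Δ difference 129, the mbf1Δ difference 16 and untreated gcn4Δ 26. In that fit RPL38 missed the threshold in untreated gcn4Δ (adjusted p = 0.0571, edgeR). For the fits in this paragraph, shares of all genes or all pairs are not given here. The called shares and counts therefore have no background beside them.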
